A study of Homo sapiens with 16 samples.

Results

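A set of 9 genes of neuroendocrine identity and regulated secretion was examined for peaks of N6-methyladenosine (m6A) in prostate cancer cells: SYT4, SYT1, SYT7, CHGA, SYP, ENO2, INSM1, REST and SRRM4. The genes were chosen by name, with SYT4 included because the study took it to targeted assays, and their peaks were picked up by position, as every merged region and every library peak that touches the GENCODE span of a gene on GRCh38 (hg38). This gave 14 of the 36970 merged regions and 65 of the 191974 peaks in the 8 lists. A merged region or peak was present in 6 of the 9 genes, and CHGA, SYP and INSM1 had none. Each peak exists because a library passed the caller's threshold there, so the presence of a region is what chose it and is given as a description.

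MeRIP-seq pulls down fragmented RNA with an antibody against m6A and sequences it beside input RNA that saw no antibody. It was applied on day 3 of growth to C4-2B, a human prostate cancer line sensitive to the androgen receptor inhibitor enzalutamide, and to MDV-R, a resistant line derived from C4-2B by serial passage, both labelled wild type. Each line had 4 immunoprecipitated (IP) and 4 input libraries, 16 in all, and the 8 peak lists of the IP libraries are what was analysed. According to the methods, MDV-R was kept in medium with enzalutamide, so that the line and the drug in its medium cannot be told apart, and each line is a single cell line. Nothing states whether replicates were separate cultures, so the tests measure the spread between these libraries only.

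m6A is written on mRNA by the METTL3 complex, mostly at an adenosine followed by C in a short preferred context, and is best known near stop codons, in 3′UTRs and in long internal exons. Neuroendocrine differentiation is a form of lineage plasticity seen in prostate tumours under androgen receptor inhibition, in which luminal genes fade and genes of dense-core granules and synaptic vesicles appear. REST is the zinc finger repressor that keeps neuronal genes off in other cells, and SRRM4 is a splicing factor that includes neural microexons and can switch REST to a truncated form. INSM1 is a transcription factor of neuroendocrine cells. CHGA (chromogranin A), SYP (synaptophysin) and ENO2 (neuron-specific enolase) are the markers pathologists stain for, and the synaptotagmins SYT1, SYT4 and SYT7 sit on vesicle membranes, where SYT1 and SYT7 sense calcium.

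The libraries were shallow. Solving the deposited statistics gave 0.317 to 0.414 M IP tags (reads kept by the authors, where 1 M is 1000000) per library, and 0.308 to 0.431 M input tags in C4-2B against 0.645 to 1.02 M in MDV-R. The deeper inputs all belong to MDV-R, so input depth and line cannot be told apart: 1 input tag near a summit set the local background to between 2.44 and 3.33 times the library average in C4-2B and to between 1.01 and 1.88 times in MDV-R. C4-2B replicate 1 stood apart, with 13191 peaks against 23254 to 30645 in the other 7 lists, and its weakest peak had 6 IP tags at the summit against 4 in the others. MDV-R replicate 3 had the highest median background over shared regions of the MDV-R lists, although its gap to the next, 0.644 of their range, did not pass Dixon's test. Of 14 luminal prostate markers, 12 held a peak (KRT8 and KRT18 held none), against 58.6% of protein-coding genes. In at least 3 lists of each line 11 did, against 40.0%, and 8 held one in all 8 lists. TRPM8 held peaks in 2 C4-2B lists and in no MDV-R list. These counts are a description, and cell identity was not tested. Of the neuroendocrine markers CHGA, SYP, ENO2, INSM1, NEUROD1, CHGB, SCG2, SCG3, NCAM1 and UCHL1, ENO2 alone held a peak, in a place it shares with another gene. In wider lists, 7 of 18 neuroendocrine transcription factors and 3 of 22 granule and neuropeptide genes had a peak, also below 58.6%. Not every such gene lacked one. The transcription factors ONECUT2, NKX2-2 and LHX2 and the granule gene VGF were those with peaks in all 8 lists. A missing peak does not show that a transcript is absent, because an unmethylated or a weakly expressed transcript gives none, and in bulk RNA fewer cells that carry a transcript and less of it per cell cannot be told apart.

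**Figure D1:**
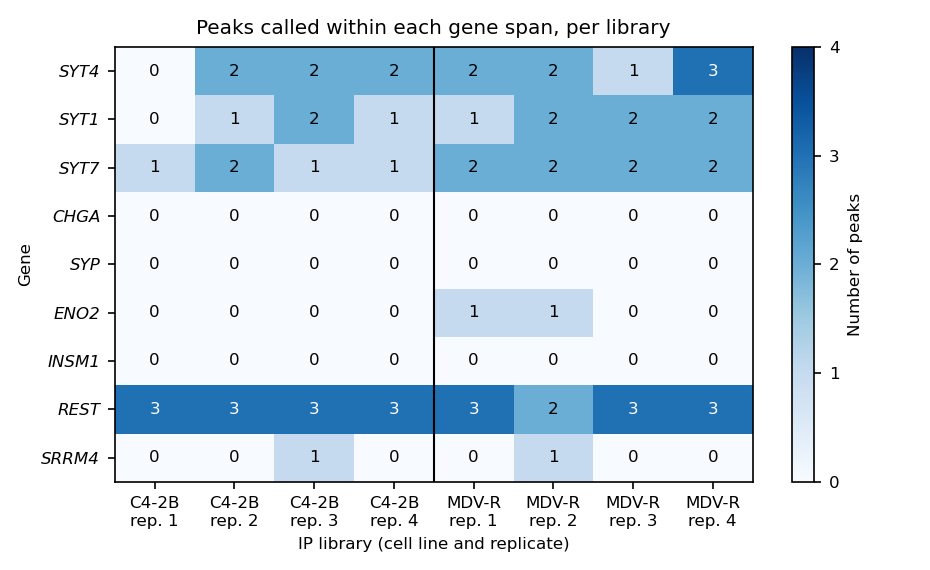
Number of peaks within the span of each of the 9 genes (rows) in each IP library (columns, cell line and replicate; the vertical line parts C4-2B from MDV-R). REST and SYT7 had peaks in all 8 lists, SYT4 and SYT1 in 7 (none in C4-2B replicate 1), and CHGA, SYP and INSM1 in none.

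Over the whole annotation, 58.6% of 20033 protein-coding genes had a peak in at least 1 list, and 40.0% had one in at least 3 lists of each line. Of the 9 genes, 6 met the first condition and 4 (SYT4, SYT1, SYT7 and REST) the second. Of the 14 regions, 7 had their strongest summit in an exon of the gene itself by GENCODE release 44 (4 in coding sequence, 2 in a 3′UTR and 1 in a 5′UTR) and 7 in an intron. Over 35509 called regions on the main chromosomes, 56.0% were exonic and 31.9% intronic by another rule, which takes an exon of any gene first. By that rule the ENO2 region, chr11:61540493-61541462 in SYT7 and chr12:79393066-79393866 in SYT1 would count as exonic, since their summits lie on exons of other genes. These shares are therefore not like for like. Regions called in all 8 lists numbered 3, where 25.9% of 36076 called regions were.

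REST gave the strongest peaks of the group by p-value. The gene (ENSG00000084093) lies on the plus strand of chr4:56907876-56966808, and its strongest summits fell in coding sequence of exons 2 and 4, at positions 503 and 1723 of the 7309-nt canonical mRNA. The exon 2 region, chr4:56910516-56911353, was called in every list, with summits within 57 nt of each other. Its fold enrichment (IP over local background) was 6.38, 15.6, 16.3 and 18.0 in C4-2B replicates 1 to 4, and 18.9, 27.1, 9.43 and 15.4 in MDV-R replicates 1 to 4. The lowest values came from C4-2B replicate 1 and MDV-R replicate 3, and the ranges overlapped. IP CPM at this summit, the IP tags there per 1000000 IP tags of the library, was 391, 474, 516 and 520 in C4-2B, and 502, 561, 401 and 373 in MDV-R. Here too the lines overlapped. The peak stood at percentile 93.9 of its list by p-value in C4-2B replicate 1 and at 96.4 to 99.6 in the other 7 lists.

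The exon 4 region of REST, chr4:56929698-56932147, is 2450 nt long and held 2 peaks, each with its summit, in 6 lists. In MDV-R replicates 2 and 4 it held 1 long peak (2419 and 2210 nt) that runs over both places, and its 1 listed summit is the upstream one. The downstream summit thus has no value of its own in these libraries, which does not mean that signal was missing there. At the upstream summit the fold enrichment was 5.42, 11.8, 12.1 and 10.0 in C4-2B, and 16.6, 19.2, 5.78 and 22.5 in MDV-R. All MDV-R libraries but replicate 3 exceeded every C4-2B library. The local background at the same summit was 46.8, 23.0, 25.1 and 32.2 times the library average in C4-2B, and 18.5, 18.2, 63.8 and 13.3 times in MDV-R, so the libraries of low enrichment were those of high background. The downstream summit had a fold enrichment of 5.44, 9.52, 9.54 and 9.52 in C4-2B, and of 11.9 and 8.39 in MDV-R replicates 1 and 3. A further peak in the 5′UTR, chr4:56907831-56908124, was called in MDV-R replicate 4 alone, with 18 IP tags.

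The reference stretches at these summits show what lies under the peaks. The preferred m6A context is A, G or T, then A or G, then AC, then A, C or T (DRACH), and GGAC followed by such a base is its best-known form. In the stretches printed here, taken from hg38 on the strand of the gene, the capitals mark the DRACH match nearest to the median summit, or GGAC where that lay within 50 nt.
REST exon 2, chr4:56910839-56910863: cggtgaagaaAGACAgatggcagaa
REST exon 4, upstream summit, chr4:56930153-56930177: aacgagaggcTGACTtgcctgataa
REST exon 4, downstream summit, chr4:56931695-56931719: aaatgaaaatGGACactgatcagaa

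The downstream summit was the only one of REST with GGAC within 50 nt, 38 nt away. Each of the 3 stretches occurs once on the main chromosomes.

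**Figure D2:**
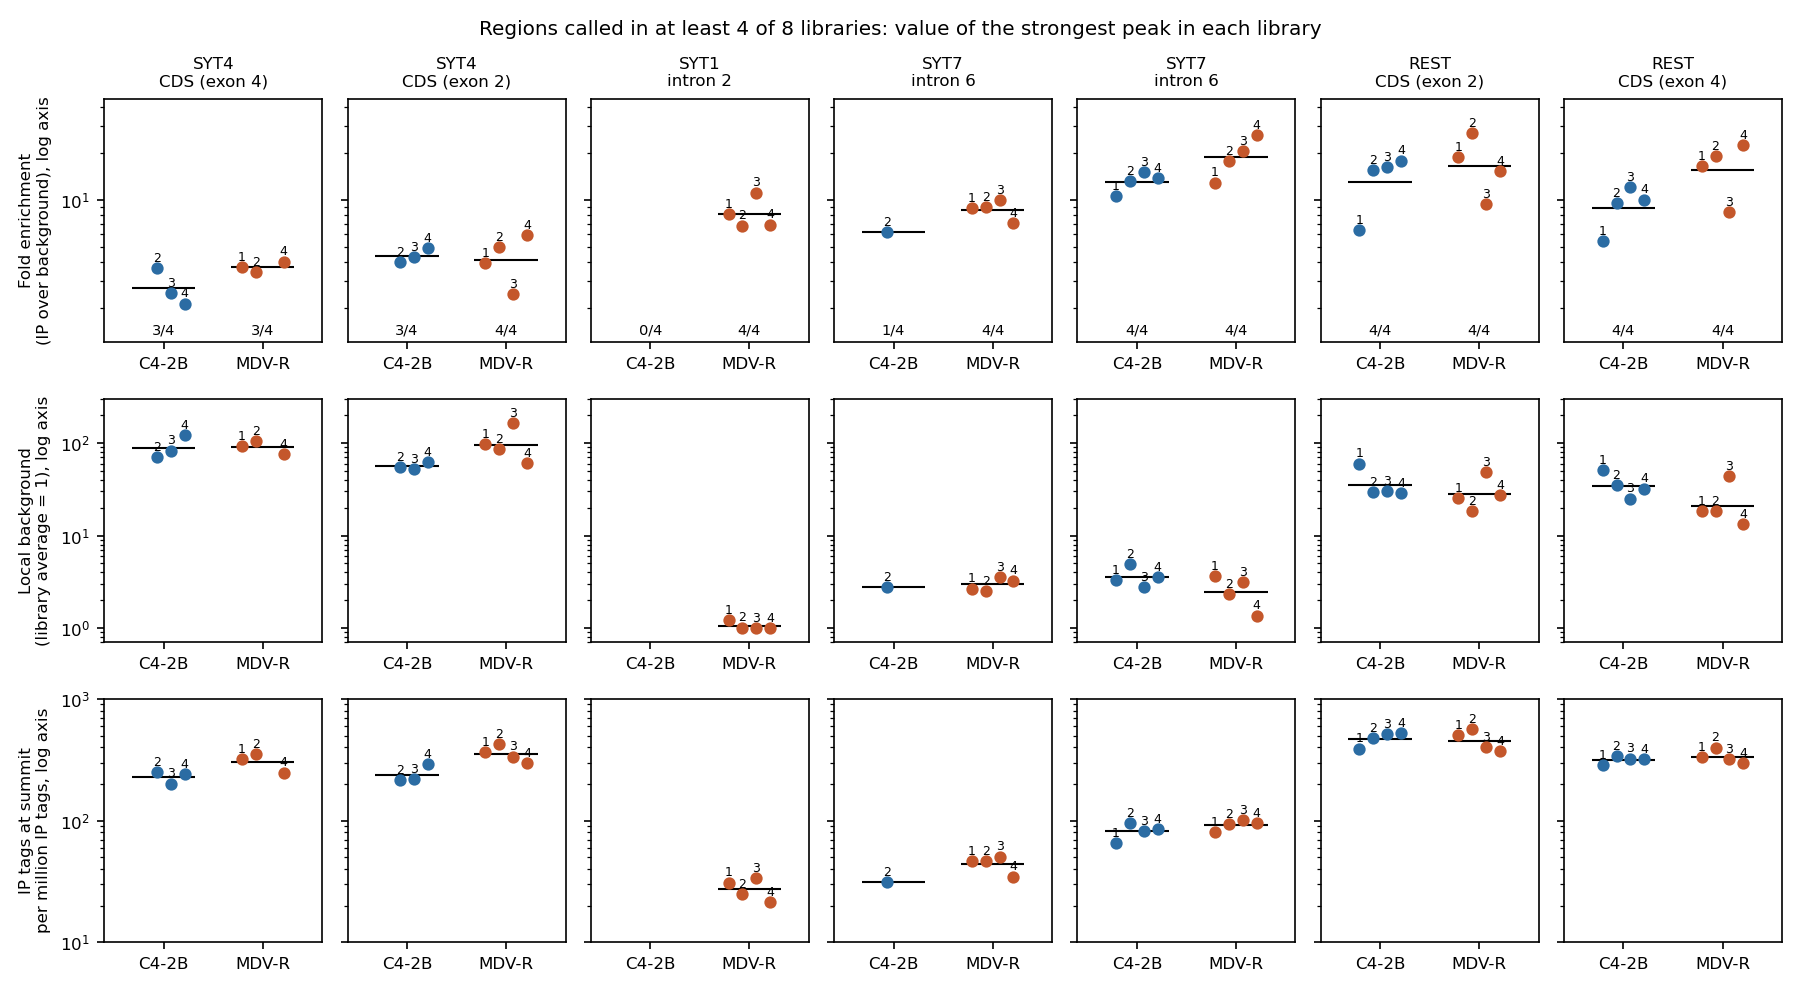
Fold enrichment, local background (library average set to 1) and IP tags at the summit per 1000000 (IP CPM), each on a log axis, of the strongest peak per library (dots, numbered by replicate) in the 7 regions called in at least 4 of 8 lists. Lines are geometric means and the fractions give the number of libraries with a call. SYT4 and REST had high background, SYT7 and SYT1 low, and the SYT1 region had no C4-2B point.

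SYT7, the high-affinity calcium sensor of slow vesicle release and of lysosome fusion with the plasma membrane, held the third region called in all 8 lists. The gene (ENSG00000011347) is on the minus strand of chr11:61513714-61581148, and both of its regions lay in intron 6 of the canonical transcript. Region chr11:61540493-61541462 overlapped an exon of a long non-coding RNA of the same strand (ENSG00000256443), so that its reads cannot be assigned to SYT7 alone. IP CPM there was 65.6, 96.0, 82.5 and 85.0 in C4-2B, and 80.5, 93.1, 101 and 96.0 in MDV-R. The lines overlapped. Fold enrichment was 10.6, 13.2, 15.1 and 13.8 in C4-2B, and 12.9, 17.9, 20.6 and 26.3 in MDV-R, where 3 of 4 libraries exceeded every C4-2B library. Local background was 3.33, 4.88, 2.75 and 3.57 times the average in C4-2B, and 3.63, 2.33, 3.16 and 1.36 times in MDV-R. A single input tag sets 2.44 to 3.33 times in C4-2B and 1.01 to 1.88 times in MDV-R. These backgrounds thus rest on few input tags, and the higher ratio in MDV-R cannot be told apart from its deeper input.

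The other SYT7 region, chr11:61538654-61539739, lies further downstream in the same intron and had no other gene at its summit. Every MDV-R list had a peak there, against 1 of 4 from C4-2B (two-sided Fisher's exact p = 0.143, Benjamini-Hochberg adjusted p = 0.997). The single C4-2B call, in replicate 2, had an IP CPM of 31.1, and the MDV-R calls had 46.4, 46.5, 50.7 and 34.7. All were higher, but a single C4-2B library gives no spread. Local background was 2.78 times the average in that C4-2B library and 2.51 to 3.54 times in MDV-R. Both SYT7 summits carried GGAC followed by A close to the median summit, at 3 and 5 nt, and each stretch occurs once in the genome.
SYT7 intron 6, region called in all lists, chr11:61540842-61540866 (minus strand): gtttgttttgGGACAgaggctgtga
SYT7 intron 6, region called mostly in MDV-R, chr11:61538879-61538903 (minus strand): ctggcttcaaGGACAtctggttgac

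Across the 9 genes, GGAC lay within 50 nt of the strongest summit in 3 of the 14 regions, 1 of them exonic (the SYT4 3′UTR region). Among all called regions 45.5% of exonic and 34.0% of intronic summits had it. At the SYT4 3′UTR summit GGAC was followed by G, which is not a DRACH match, and it lay outside the merged region. The wider DRACH context was found at 10 of the 14, against 88.1% and 85.4%. Matches were sought on the strand of the annotated gene and are a description of the letters there.

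SYT4, a vesicle membrane synaptotagmin of secretory granules, was taken up by the study on the strength of these same libraries, and its values are described without a test. The gene (ENSG00000132872) lies on the minus strand of chr18:43267892-43277535 and overlaps no other gene. Its region in exon 2, chr18:43273681-43274505, was called in C4-2B replicates 2 to 4 and in all MDV-R lists, with summits within 56 nt of each other, the strongest of them in coding sequence at position 697 of the 3936-nt mRNA. IP tags at the summit were 76, 72 and 92 in C4-2B replicates 2 to 4, and 118, 137, 139 and 112 in MDV-R replicates 1 to 4. The IP CPM was thus 215, 220 and 290 in C4-2B, and 365, 425, 336 and 299 in MDV-R, so that every MDV-R library was above every C4-2B library with a call. Local background was 55.0, 51.8 and 62.4 times the average in C4-2B, and 97.9, 85.9, 163 and 60.6 times in MDV-R, and 3 of the 4 MDV-R values also lay above the C4-2B range. Fold enrichment, which divides the former by the latter, was 3.95, 4.27 and 4.91 in C4-2B, and 3.91, 4.93, 2.46 and 5.91 in MDV-R, and the lines overlapped fully.

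Exon 4 of SYT4 held the second coding region, chr18:43270264-43270807, called in C4-2B replicates 2 to 4 and in MDV-R replicates 1, 2 and 4. Its IP CPM was 251, 202 and 239 in C4-2B, and 322, 354 and 248 in MDV-R. MDV-R replicate 4 lay within the C4-2B range, and the other 2 lay above it. Fold enrichment was 3.63, 2.51 and 2.14 in C4-2B, and 3.67, 3.41 and 3.99 in MDV-R. A 3′UTR region, chr18:43268449-43268739, was called in MDV-R replicate 4 alone with 43 IP tags. The study placed its assayed SYT4 peak in the 3′UTR, with lower methylation and higher expression in MDV-R. Its coordinates are not given, so whether it is this region cannot be told, and a call in a single library gives no direction. C4-2B replicate 1, the smallest list, had no SYT4 peak of any kind.

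On the scale of local background, which is taken over windows of fixed length, SYT4 ranged from 51.8 to 163 times the library average and the exonic REST summits (5′UTR left out) from 13.3 to 63.8 times. SYT7 lay between 1.36 and 4.88 times. Low fold enrichment at SYT4 (2.14 to 5.91) went with the highest background of the group. No GGAC was present anywhere in either SYT4 coding region. The exon 4 summit had no DRACH match within 50 nt, and the exon 2 summit had 1, shown here with its 5 letters in capitals.
SYT4 exon 2, chr18:43273852-43273876 (minus strand): gagcagtcgaTGACCtctgacccat

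**Figure D3:**
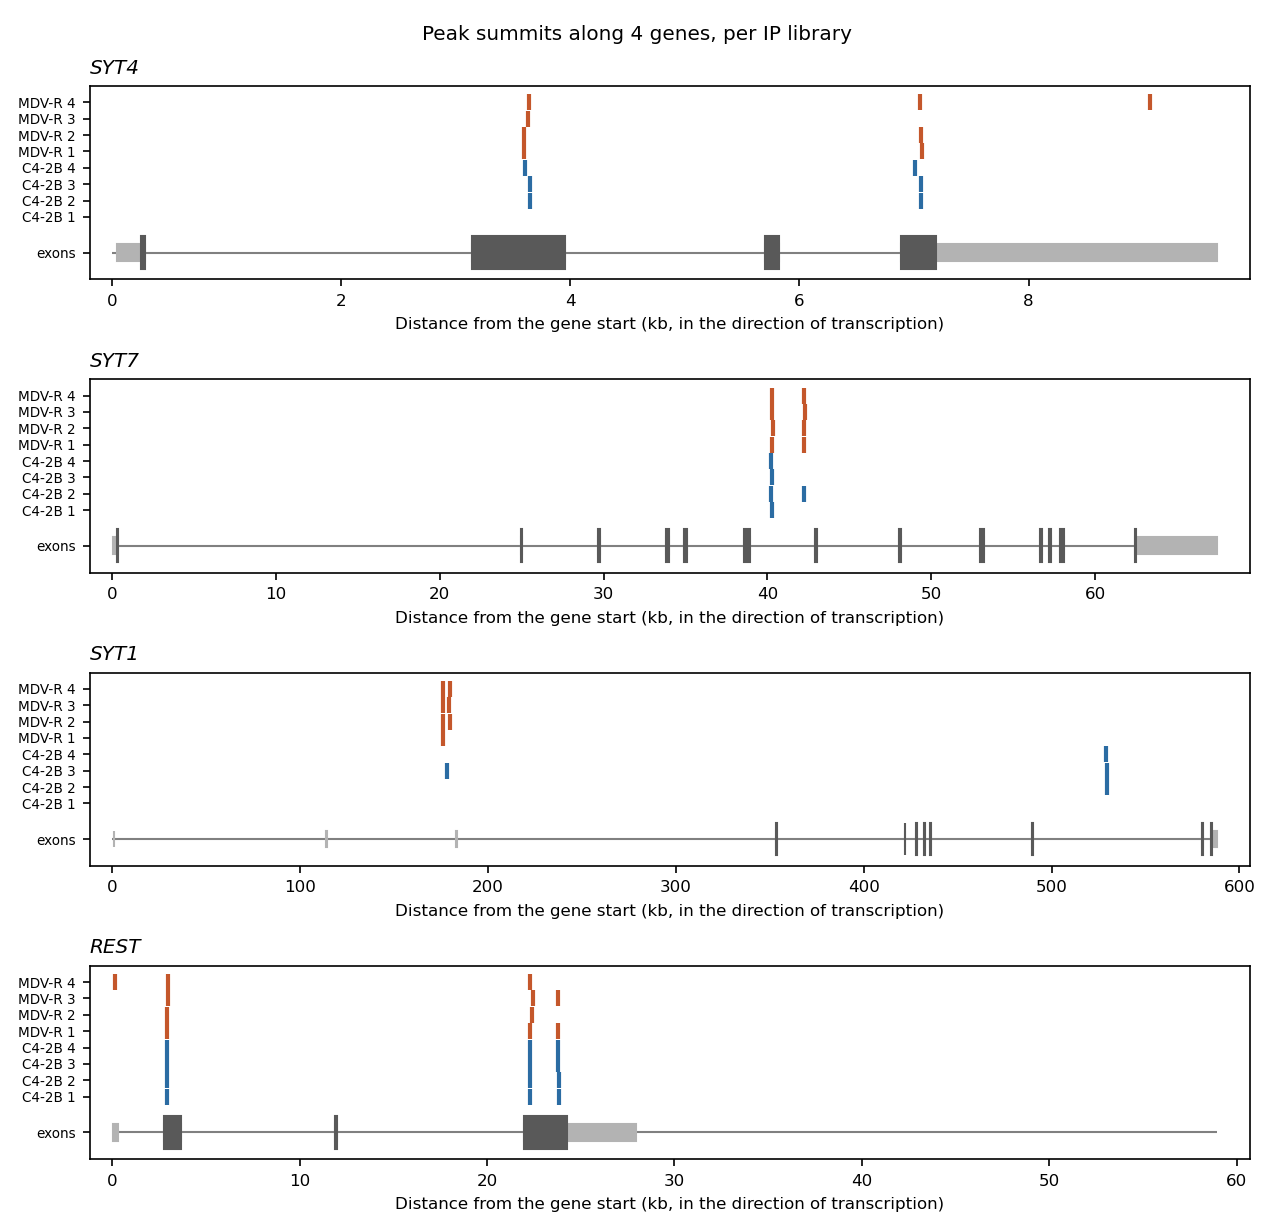
Positions of peak summits (ticks, 1 row per IP library) along SYT4, SYT7, SYT1 and REST, as distance in kb from the gene start. Boxes are exons of the canonical transcript (tall for coding sequence, low for UTR). SYT4 and REST summits sat in coding exons, but for 1 UTR summit of each gene in MDV-R replicate 4, while every SYT7 and SYT1 summit sat in an intron.

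SYT1, the fast calcium sensor of synaptic vesicle fusion, gave the only region of the 9 genes that was called in every list of a line and in none of the other. The gene (ENSG00000067715) spans 588016 nt on the plus strand of chr12:78863993-79452008. All of its summits lay in introns, and the nearest exon of the canonical transcript was 3704 to 40039 nt from the strongest summit of each region. Region chr12:79039982-79040524, in intron 2 and within an intron of an antisense long non-coding RNA (ENSG00000257191), had a peak in all 4 MDV-R lists and in 0 of 4 from C4-2B (two-sided Fisher's exact p = 0.0286, the smallest that 4 against 4 lists allow, adjusted p = 0.584). The same pattern was found for 3.68% of all called regions, and the mirror pattern for 1.22%. No region in the table passed the adjusted test, while 1766 had an unadjusted p under 0.05. Since no p can fall below 0.0286, passing would need most of the 36076 called regions at that value. The adjusted test could therefore hardly be passed, and its outcome does not show that the lines are alike. Without C4-2B replicate 2 or MDV-R replicate 1, 2 of the 14 regions were called in every remaining MDV-R and no C4-2B list, and without C4-2B replicate 1, 1 had the reverse. The MDV-R peaks were weak, with 10, 8, 14 and 8 IP tags at local backgrounds of 1.00 to 1.21 times the average.

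When every list was limited to the 13191 strongest peaks, this SYT1 region was no longer called in all MDV-R lists, and SYT1 as a whole kept a peak in 1 list of 8 (7 at the deposited threshold). Region chr12:79043249-79043987, also in intron 2, had a peak in 3 MDV-R lists and no C4-2B list, at 7 to 9 IP tags. Region chr12:79393066-79393866, in intron 9 and over an exon of an antisense long non-coding RNA (ENSG00000257894), ran the other way, with a peak in 3 C4-2B lists and no MDV-R list, at 6 to 17 IP tags. Both gave a Fisher's exact p of 0.143 and an adjusted p of 0.997. A single further peak, with 8 IP tags in C4-2B replicate 3, lay between the intron 2 regions and touched no merged region.

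The genome sequence under the MDV-R peaks of SYT1 is repeated, which bears on how reads are placed. The 25-nt windows at the median summits of the intron 2 regions had 46 and 18 exact copies on the main chromosomes (both strands counted). At the intron 9 region and at the summits of the other 5 genes with a region such a window had 1 or 2 copies. The authors kept uniquely mapped reads, and the part of repeated sequence in the SYT1 calls was not tested.

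ENO2, SRRM4 and the genes with no peak complete the set. ENO2 (ENSG00000111674, plus strand, chr12:6913745-6923698) had 1 region, chr12:6913839-6914174, called in MDV-R replicates 1 and 2 with 22 and 14 IP tags. It lies 201 nt into the gene span, outside the canonical ENO2 transcript and on coding sequence of LRRC23, which runs on the same strand, so the peak cannot be assigned to ENO2. SRRM4 (ENSG00000139767, plus strand, chr12:118981541-119163051) had a 3′UTR peak in C4-2B replicate 3 and an intron 1 peak in MDV-R replicate 2, each with 6 IP tags at the library's average background. They stood at percentiles 5.68 and 5.86 of their lists. At a −log10 q of at least 5, SRRM4 kept a peak in 1 list. CHGA (chr14:92923150-92935285), SYP (chrX:49187815-49200218) and INSM1 (chr20:20368104-20370949) had no peak in any of the 8 lists. The weakest peaks called anywhere had 4 IP tags (6 in C4-2B replicate 1), so a weaker signal was not detectable at this depth.

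Differences between the lines in strength were tested with limma over the 9327 regions called in all 8 lists, where 3 of the 14 regions had a value in every library. Across all 9327, fold enrichment was higher in MDV-R by a median of 0.44 on the log2 scale, and the difference was above 0 in 84.2% of them. At an adjusted p under 0.05, 3.41% of regions were higher and 0.225% lower in MDV-R, and after each list was centred on its median the counts turned from 318 higher and 21 lower to 79 higher and 167 lower. Leaving out a library moved the number of higher regions between 23 (without MDV-R replicate 2) and 2016 (without MDV-R replicate 3). None of the 3 REST and SYT7 regions passed, each taken at the strongest peak of each list, which in REST exon 4 was the downstream summit in C4-2B replicates 1 and 2 and MDV-R replicate 3. At an unadjusted p under 0.05, 1 of the 3 was higher, as were 23.8% of all 9327. REST exon 4 was higher in MDV-R by 0.81 (SE 0.36, 95% interval 0.11 to 1.52, adjusted p = 0.141), which is 0.38 above the median of all regions. REST exon 2 was higher by 0.34 (interval −0.36 to 1.04, adjusted p = 0.535) and SYT7 by 0.53 (interval −0.18 to 1.23, adjusted p = 0.330).

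The call at REST exon 4 depended on MDV-R replicate 3. It passed without MDV-R replicate 3 (log2 difference 1.11, adjusted p = 0.0192) and narrowly when C4-2B replicate 1 was left out as well (0.88, adjusted p = 0.0485), but was 0.60 (adjusted p = 0.266) when the upstream summit was taken in every list. Other lists left out gave adjusted p between 0.121 and 0.441. The REST exon 2 difference was −0.01 without C4-2B replicate 1.

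The log2 difference in local background had the opposite sign at all 3 regions. It was −0.71 at REST exon 4 (adjusted p = 0.270), −0.33 at REST exon 2 (adjusted p = 0.623) and −0.53 at SYT7 (adjusted p = 0.397), against a median of −0.48 over all regions, of which 11.0% were lower and 1.66% higher in MDV-R. For IP CPM the log2 difference was 0.08 at REST exon 4 (interval −0.25 to 0.42, adjusted p = 0.757), −0.06 at REST exon 2 (−0.40 to 0.28, adjusted p = 0.833) and 0.18 at SYT7 (−0.15 to 0.52, adjusted p = 0.450). For this measure 14.3% of all regions were higher and 19.3% lower in MDV-R. For fold enrichment and IP tags the fit gave every region the same SE (0.36 and 0.17), whatever its own spread. The SD of log2 fold enrichment over 4 libraries at REST exon 2 was 0.69 (C4-2B) and 0.64 (MDV-R), and at SYT7 it was 0.22 and 0.43.

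**Figure D4:**
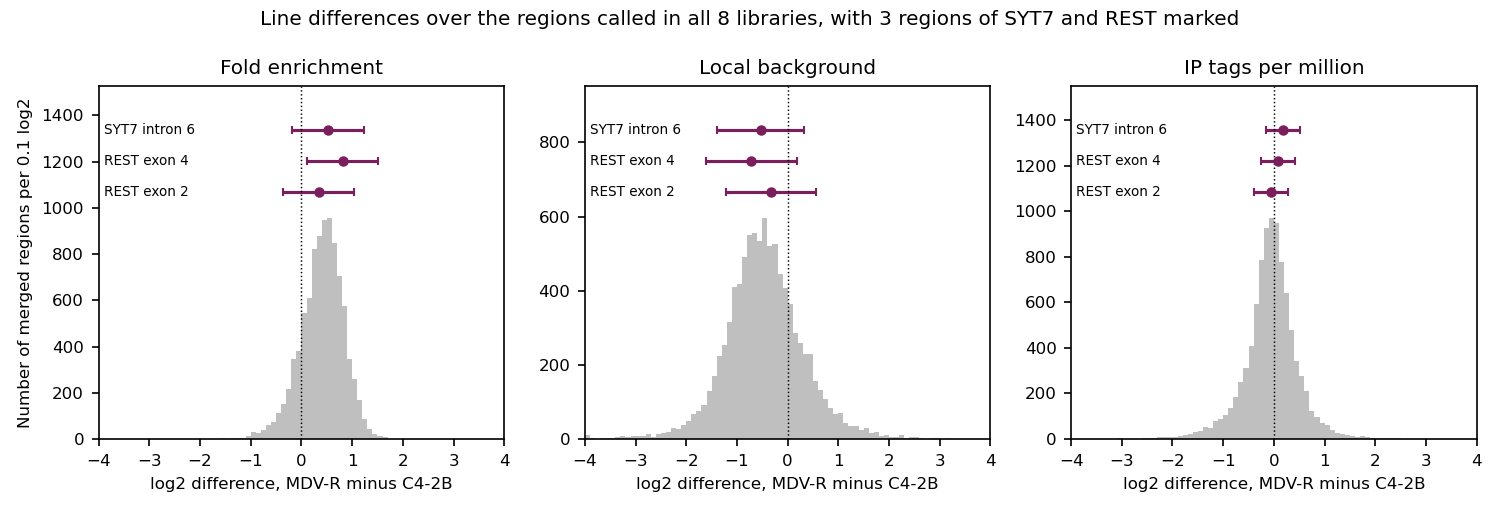
Distribution of the log2 difference (MDV-R minus C4-2B) in fold enrichment, local background and IP CPM over the 9327 regions called in all 8 lists (grey bars, number of regions per 0.1 log2), with the REST and SYT7 regions as points with 95% intervals. The bulk of regions lay right of 0 for fold enrichment (median 0.44) and left of 0 for background (median −0.48), and the 3 marked regions lay within both bulks.

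Around the 9 genes, 117 genes of the same pathways were read in the same way, and 55 of them (47.0%) had a peak, against 58.6% of protein-coding genes. Of their 145 regions, 28 (19.3%) were called in all 8 lists, against 25.9% of all called regions. Every MDV-R and no C4-2B list called 8 (5.52%, against 3.68%), and 0 went the other way (against 1.22%). The 145 include merged regions that no list called, as in SYN1 and DLL3, while the shares of all regions are over called ones only. Among 14 other synaptotagmins 8 had a peak, and so had 22 of 43 genes of vesicle fusion, 7 of 18 neuroendocrine transcription factors and 15 of 20 REST cofactors and neural splicing factors. Genes of secretory granules and neuropeptides, the group closest to CHGA, had a peak in 3 of 22 (VGF, PAM and DDC). ONECUT2, a transcription factor of neuroendocrine prostate cancer, held 9 regions, 5 of them called in all 8 lists.

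The 8 regions called in MDV-R alone lay in SYT9 (coding sequence), UNC13B (2 coding regions), SV2B (5′UTR), NKX2-1 (3′UTR), MYT1 (coding sequence), SIN3A (intron) and SRRM2 (non-coding exon). Their strength differed widely. SV2B, a synaptic vesicle glycoprotein, had 6 to 9 IP tags, SYT9 had 8 to 13 and UNC13B, a priming factor of vesicle release, 8 to 19. MYT1, a zinc finger factor of neural differentiation, had 31 to 47, and SRRM2, a spliceosome scaffold related to SRRM4, 60 to 68. Each gave the same Fisher's exact p of 0.0286 and adjusted p of 0.584 as SYT1.

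Of the 28 pathway regions in the fit, 0 were higher and 1 was lower in MDV-R in fold enrichment by limma (6 and 2 at an unadjusted p under 0.05, where 23.8% and 1.47% of all 9327 regions were). That region was the 3′UTR of SYT12, chr11:67048534-67050255, with a log2 difference of −1.45 (SE 0.36, adjusted p = 0.00984, and −1.85 with adjusted p = 0.00668 after centring). Its IP CPM fell by 2.05 on the log2 scale as well (after centring −2.03, adjusted p = 1.51e-05). The log2 difference in local background at SYT12 was −0.85 (limma adjusted p = 0.299). Mean log2 background went from 1.08 (C4-2B, SD 1.44) down to 0.23 (MDV-R, SD 0.45), the latter close to the library average. Whether the lower fold enrichment reflects less methylation or less SYT12 transcript was not tested. In IP CPM, 3 of the 28 regions were higher and 10 lower in MDV-R, against 14.3% and 19.3% of all regions. After centring 7 (25%) were higher and 11 (39.3%) lower, against 2169 and 2518 of all 9327 regions. The 3 that were higher before centring lay in NKX2-2, SYT17 and DNM1. NKX2-2, a transcription factor of neuroendocrine cells, rose by 0.98 on the log2 scale in its coding region (after centring adjusted p = 6.57e-05), and SYT17 rose by 0.64 in its 3′UTR (after centring adjusted p = 0.000699). In fold enrichment NKX2-2 differed by 0.75 (limma adjusted p = 0.169) and SYT17 by 0.10 (adjusted p = 0.870). Their local background differed by 0.51 (adjusted p = 0.428) and 1.18 (adjusted p = 0.142). These genes were named after their values were seen.

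Pathway genes with peaks in exactly the lists of SYT4 (C4-2B replicates 2 to 4 and all MDV-R lists) were SYT15, STX3, UNC13B, RIMS2, DDC, POU3F2 and SRRM2, 7 of 117, and SYT1 among the 9. The same 8 presence values were found in 1199 of 20033 protein-coding genes (5.99%), and the missing list is the smallest one.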

How the data were processed

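Members and gene lists were chosen with earlier results of these data known. MeRIP-seq of C4-2B and MDV-R gave 8 IP and 8 input libraries. MDV-R titles carry a different line's name, so groups rest on the cell line field. Alignment by the authors used STAR 2.7.0 on hg38 with GENCODE (release 39). They kept uniquely mapped, deduplicated reads with SAMtools 1.10 and called peaks per IP library over its input with MACS2 (3.0.0a6 in the processing notes). The deposited lists hold the ratio of IP pileup to local background (fold enrichment), −log10 p and −log10 q values and a score, and a deposited merged list holds coordinates alone. The read counts behind the authors' DESeq2, edgeR and QNB tests were not used here, and these tests were not run. The lists carry no strand. Sequences at the SYT1 summits are not reported here.

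IP tags and local background at each summit were solved from the fold enrichment, (pileup + 1)/(background + 1), and the Poisson p-value. Whole tags solved 100% of peaks, against 2.11% to 3.25% with a wrong scale. Depth rests on the stated genome size of 300 Mb and on each list's shortest peak (239 to 293 nt), which the steps of the background match as the fragment length in place of the stated 100 nt. Intervals cover no error of this reconstruction.

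A region was called in a list when a peak overlapped it by 1 bp. The strongest peak by p-value gave its values and class (GENCODE release 44, exons before introns and CDS before UTRs). For the 9 genes the class came from the gene's own transcripts, and for all called regions from those of any gene. Numbers of lists with a call were set against each other by Fisher's exact test (two-sided), adjusted by Benjamini-Hochberg over all called regions, and log2 values with limma 3.58.1 (R 4.3.3) over the regions called in all 8 lists. The threshold was an adjusted p of 0.05. All 9 genes were named, with regions called in at least 4 lists in full. Pathway genes were named for a region called in 4 lists of a line and 0 of the other, or past the threshold in fold enrichment, at most 3 per list. Recovery, call counting and limma were tested on simulated data. Alternatives were a −log10 q of 5, lists of equal size, a 50% overlap, regions wholly inside the span, other ways to take, filter or centre values, a replicate block, 25-nt windows, DRACH, canonical transcripts and leaving out each library.

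Replicate numbers are shared by the lines in the labels. Deviations of same-numbered libraries from their line means correlated between −0.07 and 0.03 in fold enrichment. These values show no shared deviation, but they cannot show whether libraries were handled as pairs, so the main fits left the numbers out.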

Additional observations from a re-analysis of the deposited data

Results flagged for a closer look

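Of 39 sets of 4 libraries examined, 6 had 1 library far from the other 3 (Dixon's test, which flags about 1 in 20 by chance), and 5 of these concerned C4-2B replicate 1. Its list had the fewest peaks of the C4-2B lists (13191), and over the regions called in all 8 lists it had the lowest median log2 fold enrichment (2.89) and the lowest median log2 IP CPM (7.01, IP tags at the summit per 1000000) of that line. At REST exon 2 it had the lowest fold enrichment of the line (6.38) and the highest local background (59.9 times the library average, against 28.6 to 30.3 in the other 3). At the SYT1 region called in MDV-R alone, the local background of MDV-R replicate 1 was 1.21 times the average, against 1.00 to 1.01 in the other 3.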

How the results depend on the processing

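Of 300 recomputed values (reported ones included), 254 kept direction and side of the threshold (counts within 1.5 times), 39 counts moved, 3 differences came to pass and 4 changed sign. The 254 include the number of regions passing the adjusted Fisher test, 0 in each setting, which could hardly be otherwise. With lists limited to the smallest, 7 regions stayed called and 0 were in MDV-R alone. Leaving out each library gave 1 to 2 MDV-R-only and 0 to 1 C4-2B-only regions, 23 to 2016 regions higher and 3 to 74 lower in fold enrichment, 81 to 144 higher and 410 to 2887 lower in local background, and 1085 to 1410 higher and 1453 to 2555 lower in IP tags. Without C4-2B replicate 1 and MDV-R replicate 3 (a setting chosen after seeing the data), 1095 regions were higher and 125 lower in fold enrichment, and 2003 lower in background. Centring gave 79 higher and 167 lower in fold enrichment, 555 and 643 in background, and 2169 higher in IP tags. Regions called in at least 3 lists of each line gave 32 lower in fold enrichment and 2714 lower in IP tags. DRACH in place of GGAC was at 10 of 14 summits.

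REST exon 2 changed sign in fold enrichment (−0.062 centred, −0.0053 to 0.61 leaving out each library), background (0.16 centred) and IP tags (−0.16 to 0.033). REST exon 4 passed without MDV-R replicate 3 in fold enrichment and in background (−1.07, limma adjusted p = 0.0333). The cause of these shifts was not tested. Shallow, unequal input limits the background values.

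With the replicate number as a block, though nothing states that it pairs samples, 418 regions were higher and 30 lower in fold enrichment, 201 and 1079 in background, 1259 and 1705 in IP tags, and no call at REST or SYT7 changed.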

Other observations

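SRRM3, the relative of SRRM4 that also drives neural microexon splicing, held a strong 3′UTR region, chr7:76285378-76287278, called in all 8 lists, while SRRM4 had a peak in 1 list of each line. It was singled out after its values were seen. IP CPM there was lower in MDV-R (log2 difference −2.65, after centring −2.63, adjusted p = 3.84e-07) and local background fell by 2.66 (adjusted p = 0.000438). Fold enrichment differed by −0.91 (SE 0.36, adjusted p = 0.104, and −1.31 with adjusted p = 0.00845 after centring).

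VGF, a granule protein and neuropeptide precursor, was also singled out after its values were seen, as the only granule gene with a region in all 8 lists. In its coding region chr7:101162700-101164063 IP CPM fell by 0.87 on the log2 scale (after centring −0.84, adjusted p = 0.00668) and local background by 1.29 (adjusted p = 0.0341), while the log2 difference in fold enrichment was 0.12 (interval −0.58 to 0.82, adjusted p = 0.835).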
